A study of Homo sapiens with 2 samples.

Results

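The miR-200 family consists of 5 microRNA genes, MIR200B, MIR200A and MIR429 in a cluster on chromosome 1 and MIR200C and MIR141 in a cluster on chromosome 12. Its peaks were chosen by position: a peak of V5-RRN3 belonged to the family when its midpoint lay in the gene body of a member on the strand of the gene. Of 7793 listed peaks, 10 met this rule. The genes were selected on the positions of these same peaks, so the counts and peak values below are a description, and no test was made. The cells were SK-OV-3, a cell line from a human ovarian adenocarcinoma, made to express V5-RRN3 (tag at the N terminus) in a stable way from a lentiviral EF1a vector. They were grown with 100 μM 4-thiouridine for 14 h, a uridine analogue that enters new RNA and crosslinks to bound protein under 365-nm UV light, of which they received 0.2 J/cm2. RNA was sequenced from 1 anti-V5 immunoprecipitate and from 1 input, the latter being 10% of the lysate, in a method known as PAR-CLIP. No peak is listed for chromosomes 7, 8, 9, X or Y, and 19 chromosomes have peaks. The file gives the chromosomes in text order and ends with chromosome 6, and whether it holds every peak that was called cannot be told from it, so genes on these 5 chromosomes are left out of the shares given here, and all counts and ranks refer to the listed peaks. With 1 library per condition no value had a replicate check, and the read numbers behind the peaks were not analysed here.

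A microRNA is cut out of a hairpin transcript, first by DROSHA with DGCR8 in the nucleus and then by DICER1 in the cytoplasm, and either arm of the hairpin (5p or 3p) can be loaded into an Argonaute protein, where the seed near its 5′ end pairs with target mRNAs. The miR-200 family is known as a keeper of the epithelial state: its 3p strands repress ZEB1 and ZEB2, the repressors of E-cadherin, and ZEB1 and ZEB2 in turn repress the miR-200 genes. RRN3 is known as an initiation factor of RNA polymerase I.

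The 5 mature sequences on the 3′ side of the hairpins are shown because all 10 peaks lay on them. They are taken from RefSeq (GRCh38.p14), all on the plus strand, 5′ to 3′, with the seed (bases 2 to 8) in capitals. The first 3 share the seed AAUACUG and the other two share AACACUG.
hsa-miR-200b-3p: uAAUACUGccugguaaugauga
hsa-miR-200c-3p: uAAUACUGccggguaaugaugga
hsa-miR-429: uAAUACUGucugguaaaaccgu
hsa-miR-200a-3p: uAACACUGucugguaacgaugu
hsa-miR-141-3p: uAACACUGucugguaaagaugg

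Each cluster holds a member of both seed groups, and the most similar pairs lie on different chromosomes. Positions count from 1 at the 5′ end of the mature sequence, and the base of the first-named sequence comes first. Over the first 22 bases, miR-200b-3p and miR-200c-3p were identical at 20, with the differences U11G and A22G. For miR-200a-3p and miR-141-3p 20 of 22 were also identical, with C17A and U22G. The sequence of miR-429 was less like any other, with 17 of 22 bases identical to miR-200a-3p and to miR-141-3p, 16 to miR-200b-3p and 15 to miR-200c-3p. Outside the family, the seeds of the mature sequences given for its members were shared only by MIR550A2 and MIR550A3, whose miR-550a-3p has the seed GUCUUAC of miR-200c-5p. Both lie on chromosome 7, for which no peak is listed, so nothing is read from the lack of a peak in them.

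The sequences used held no hairpin for MIR200A, so the hairpins of the other 4 members show where the peaks began and ended within the precursor. They are from RefSeq (GRCh38.p14), plus strand, with the bases under peaks in capitals. They span chr1:1167104-1167198 (MIR200B), chr1:1169005-1169087 (MIR429), chr12:6963699-6963766 (MIR200C) and chr12:6964097-6964191 (MIR141).
MIR200B hairpin: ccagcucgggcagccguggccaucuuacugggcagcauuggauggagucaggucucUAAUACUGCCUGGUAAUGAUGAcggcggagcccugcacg
MIR429 hairpin: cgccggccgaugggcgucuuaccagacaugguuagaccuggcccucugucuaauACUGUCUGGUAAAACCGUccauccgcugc
MIR200C hairpin: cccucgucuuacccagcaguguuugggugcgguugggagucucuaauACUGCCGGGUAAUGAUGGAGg
MIR141 hairpin: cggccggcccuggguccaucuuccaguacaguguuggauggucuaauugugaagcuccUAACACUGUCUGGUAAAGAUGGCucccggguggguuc

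All 5 members held at least 1 peak, where 156 of the 1509 microRNA genes on the 19 chromosomes with peaks (10.3%) did. The peaks chose these members, so nothing is read from that difference. When touching or overlapping peaks on a strand were merged, the 10 peaks became 5 sites, 1 per gene. In every member the site lay on the 3p mature sequence, and in none did it reach the loop or the 5p mature sequence where one was given. The peak list gives, for each peak, the authors' fold enrichment of the immunoprecipitate over the input and a p-value. Their scaling and test are not given in the sources used here, so both serve only to describe and order peaks, and rank 1 is the lowest p-value.

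**Figure D1:**
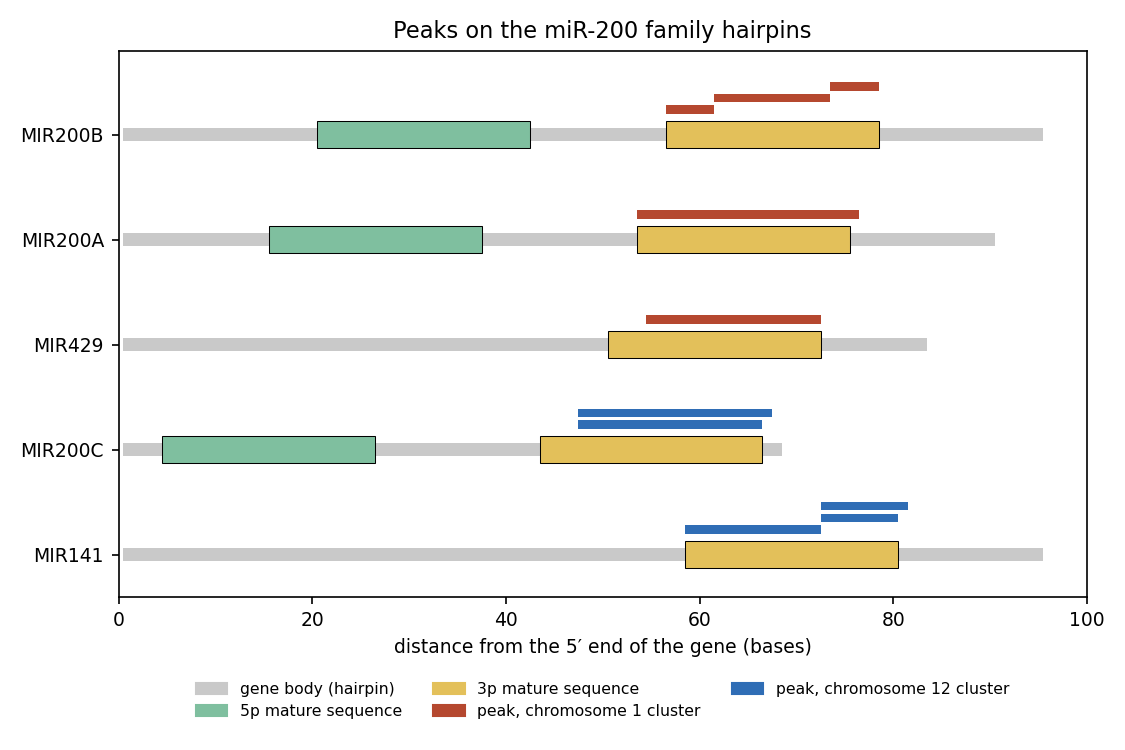
Map of the 5 genes drawn to scale by distance from the 5′ end of the gene in bases, with mature sequences as boxes and each listed peak as a bar above them (chromosome 1 cluster in red, chromosome 12 cluster in blue). All 10 peaks lie over the 3p mature sequence and run at most 1 base past its 3′ end.

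MIR200B (ENSG00000207730), whose 3p strand carries the seed AAUACUG, held 3 abutting peaks that together covered the 22 bases of miR-200b-3p from end to end. The peak at chr1:1167160-1167164 covered bases 1 to 5 of the mature sequence, with a fold enrichment of 3.71 and a p-value of 4.51e-202. The peak at chr1:1167165-1167176 covered bases 6 to 17, with a fold enrichment of 3.77 and a p-value of 2.31e-132. The peak at chr1:1167177-1167181 covered bases 18 to 22, with a fold enrichment of 2.69 and again a p-value of 4.51e-202. The outer peaks thus shared a p-value to 3 digits and the same rank, 806, while the middle peak ranked 1172. The 5 bases under the first of these peaks also begin miR-429 and miR-200c-3p, so that stretch alone does not tell 3 of the members apart.

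MIR200A (ENSG00000207607, chr1:1167863-1167952), of the AACACUG group, held 1 peak at chr1:1167916-1167938. It began at the first base of miR-200a-3p, covered all 22 of its bases and ended 1 base beyond. At 23 bases it was the longest of the 10 peaks. Its fold enrichment was 3.70 and its p-value was listed as 0, as for 580 of all peaks, so it has no place of its own among them.

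MIR429 (ENSG00000198976), the third gene of the chromosome 1 cluster, held 1 peak at chr1:1169059-1169076. It covered bases 5 to 22 of miR-429 and left bases 1 to 4 uncovered, with a fold enrichment of 3.88, a p-value of 2.79e-287 and rank 611. Only 4 of the 7 seed bases lay under the peak.

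MIR200C (ENSG00000207713), the chromosome 12 relative of MIR200B, held 2 nested peaks with the same start. The peak at chr12:6963746-6963764 had a fold enrichment of 3.97, a p-value of 1.85e-08 and rank 6978. The peak at chr12:6963746-6963765, which is 1 base longer, had a fold enrichment of 3.79, a p-value of 3.58e-13 and rank 6751. Both began at base 5 of miR-200c-3p, as the peak of MIR429 did on a mature sequence with the same seed, and again 4 of 7 seed bases were covered. These were the 2 highest p-values in the family.

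MIR141 (ENSG00000207708), the chromosome 12 relative of MIR200A, held 3 peaks that together covered all 22 bases of miR-141-3p and 1 base beyond. The peak at chr12:6964155-6964168 covered bases 1 to 14, with a fold enrichment of 2.86, a p-value of 1.53e-29 and rank 5408. The nested peaks at chr12:6964169-6964176 and chr12:6964169-6964177 covered bases 15 to 22. The shorter had a fold enrichment of 3.87 and a p-value of 8.63e-41, and the longer a fold enrichment of 3.63 and a p-value of 6.84e-79. As in MIR200C, the nested peak that ran 1 base further had the lower p-value. The 14 bases under the peak at the 5′ end are the same in miR-200a-3p, and the 8 bases of miR-141-3p under the nested peaks are found in no other 3p sequence of the family.

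Set side by side, the clusters lay apart in their listed p-values and close together in their fold enrichment. The 5 peaks of the chromosome 1 cluster had p-values from 0 to 2.31e-132 with a median of 4.51e-202, and ranks from 1 to 1172. The 5 peaks of the chromosome 12 cluster had p-values from 6.84e-79 to 1.85e-08 with a median of 1.53e-29, and ranks from 2104 to 6978. The ranges do not overlap, and the relatives with 20 of 22 identical bases fall on opposite sides of the gap. The peaks of each cluster form only 1 site per gene, however, so they are not separate values. Genes of 1 cluster also lay far apart, with a lowest p-value of 6.84e-79 in MIR141 and 3.58e-13 in MIR200C. In the miR-17-92 cluster the lowest p-value per gene ran from 0 to 3.94e-32. Nothing is therefore read from the gap. The median fold enrichment was 3.71 on chromosome 1 and 3.79 on chromosome 12. Over all listed peaks the fold enrichment runs from 2.00 to 4.00 with a median of 3.00, and its Spearman correlation with −log10 p was -0.0176 across peaks, which are not independent replicates. A difference between clusters in the amount of RNA in the cells and a difference in recovery with V5-RRN3 cannot be told apart from these values.

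Among the 156 microRNA genes with a peak, the members were spread over most of the order by lowest p-value. MIR200A was among the 53 genes with a lowest p-value of 0, MIR429 ranked 58 and MIR200B 61. MIR141 ranked 98 and MIR200C 144. The median of the lowest p-value over the 156 genes was 2.22e-115, so the 3 members on chromosome 1 lay below it and the other two above. In the let-7 genes with a peak the median lowest p-value was 0, and likewise in the miR-17-92 cluster.

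The arm under the peaks was the same in all members. Of the 10 peaks, 10 had their midpoint in a 3p mature sequence (100%, 95% Wilson interval 72.2 to 100%, which covers the number of peaks only). Peaks of 1 site are not independent, and counted as joined sites these were 5 of 5 (56.6 to 100%). For MIR429 and MIR141 no 5p sequence was given, so their peaks could be placed on a 3p sequence only. Under the peaks lay 103 of the 177 bases of the 8 mature sequences given for the family (58.2%). Split by arm, these were 103 of the 111 bases on the 3p side and 0 of the 66 bases of miR-200b-5p, miR-200a-5p and miR-200c-5p. Only 3 bases under peaks were outside a mature sequence, 1 each past the 3′ end of miR-200a-3p, miR-200c-3p and miR-141-3p. In all, peaks covered 106 of the 431 bases of the 5 gene bodies (24.6%), and 29 of the 35 seed bases of the 3p sequences.

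Peaks in other microRNA genes also lay mostly on mature sequences, but on either arm. Of 458 peaks in microRNA genes outside the family with a mature sequence, 421 (91.9%, 89.1 to 94.1%) had their midpoint in one, 240 on the 5p side and 181 on the 3p side. With the family included these were 431 of 468 (92.1%). In the let-7 genes, whose known guide is the 5p strand, 14 of 16 peaks were on the 5p side and 2 on the 3p side. In the miR-17-92 cluster 6 peaks were on each side. Among genes outside the family with both arms given and a peak on at least 1 of them, 40 of 124 had peaks only on the 3p arm (32.3%, 24.7 to 40.9%), against 3 of 3 in the miR-200 family. The 3p side is thus what the 5 members share, with too few genes for a comparison of shares.

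**Figure D2:**
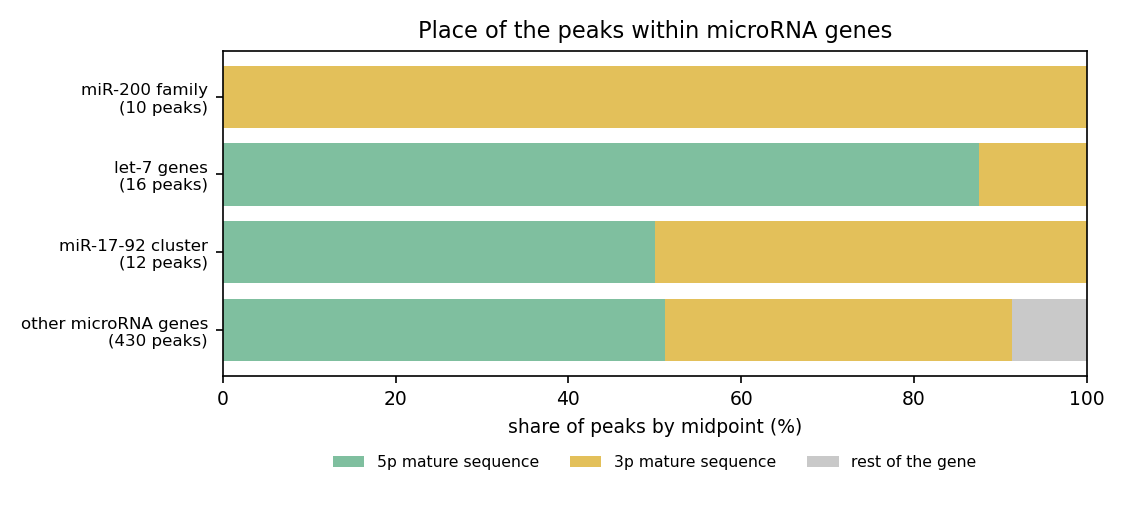
Share of peaks, by midpoint, on the 5p mature sequence, the 3p mature sequence and the rest of the gene, in percent of the peaks of each group. All 10 peaks of the miR-200 family are on the 3p side, while 14 of 16 let-7 peaks are on the 5p side and the 12 peaks of the miR-17-92 cluster are divided evenly.

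The ends of the sites followed the ends of the mature sequences. At the 3′ end, all 5 sites stopped at the last base (MIR200B and MIR429) or 1 base beyond it (MIR200A, MIR200C and MIR141), as did 98 of 164 mature sequences with a site outside the family (59.8%, 52.1 to 67.0%). Among these were 6 of 6 let-7 sequences and 3 of 5 of the miR-17-92 cluster, so the family does not stand apart from let-7 here. At the 5′ end, 3 of 5 sites began within 1 base of the first base, against 126 of 164 outside the family (76.8%). All 3 began at the first base itself, as did 86 of 164 (52.4%, 44.8 to 59.9%). The other two began 4 bases inside, as did 10 of 164 outside the family, 1 of the 6 let-7 sequences among them. This distance was singled out because members showed it, so the counts are not a comparison. These 5′ ends rest on reading the start column as counted from 0. The seed was covered whole in 3 of 5 members and in 134 of 164 other mature sequences (81.7%, 75.1 to 86.9%), among them 4 of 6 of let-7 and 3 of 5 of the miR-17-92 cluster. Both members of the AACACUG group had full cover of the seed, and of the AAUACUG group only MIR200B did.

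**Figure D3:**
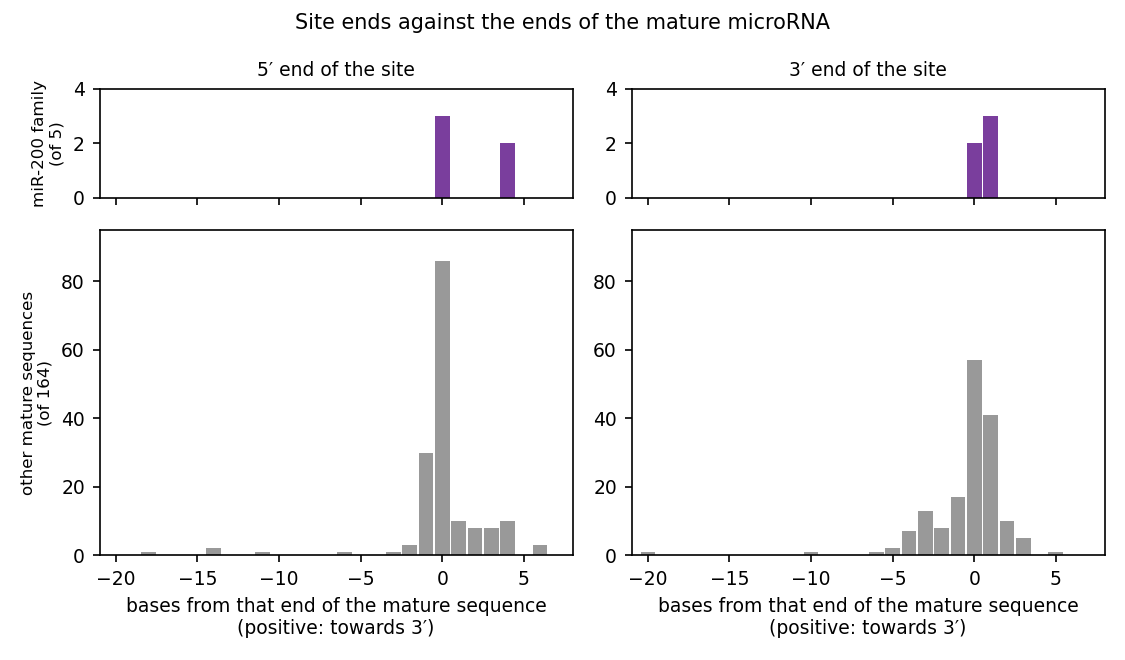
Distance in bases from the 5′ end (left) and 3′ end (right) of a site to the same end of the mature sequence under it, as numbers of mature sequences, for the 5 members (top) and 164 mature sequences outside the family (bottom). In the family the 5′ ends lie at 0 (3 members) and 4 (2 members), and the 3′ ends at 0 (2 members) and 1 (3 members).

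Base composition was examined because 4-thiouridine crosslinks at uridine. In the 4 hairpins shown, 22 of 83 bases under peaks were U (26.5%, 18.2 to 36.9%), close to the 24.4% of the 258 bases outside. MIR200A, without a hairpin here, is not among them, and 7 of the 22 mature bases under its peak were U. Among the 4 hairpins, the share of U under peaks was highest in MIR200B, at 31.8%, and it was below the share outside in MIR200C and MIR141. The share of A was 28.9% under peaks and 14.0% outside, and that of C 16.9% and 30.2%. Since the peaks lie on the 3p mature sequences, these are also the composition of those sequences against the rest of the hairpin.

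In the predicted fold of lowest energy, 68 of the 83 bases under peaks were paired (81.9%), and 180 of the 258 bases outside (69.8%). The pairing partners of these 68 bases were all on the 5′ side of the stem. By gene, the paired share under peaks was 86.4% in MIR200B, 85.0% in MIR200C, 82.6% in MIR141 and 72.2% in MIR429. The predicted energies were -49.0 kcal/mol for MIR141, -44.6 for MIR200B, -38.8 for MIR429 and -30.8 for MIR200C, the shortest of the hairpins.

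Nothing else within 10 kb of either cluster held a listed peak on either strand. The chromosome 1 cluster spans 1984 bases, and the nearest other peak lay 144 kb away in AGRN. No peak lay in its neighbours TTLL10 and TTLL10-AS1. The chromosome 12 cluster spans 493 bases within the intron of MIR200CHG, the host transcript of MIR200C and MIR141, whose exons at chr12:6963226-6963348 and chr12:6964201-6964447 held no peak. Its neighbours PTPN6, PHB2, SCARNA12 and EMG1 held none either, and the nearest other peak was 50.6 kb away in LPCAT3. No peak overlapped a member with its midpoint outside it or lay on its other strand, and the midpoint closest to the end of its gene was 11 bases inside. The rule therefore had no borderline peak.

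Windows of 20 bases centred on the sites occurred once in the genome for all 5 members, with both strands of the autosomes, X and Y searched. Only exact matches were counted, and the closest relatives differ at 2 of the first 22 bases of the mature sequence. Whether reads with a changed base can be told apart between relatives was not tested. With windows of 16 bases only those of MIR200A and MIR429 did, and the windows of MIR200B, MIR200C and MIR141 each occurred 2 times. How reads that fit several places were assigned is not given in the sources used here.

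Among 36 genes of the epithelial-mesenchymal switch, 29 are on chromosomes with peaks and 6 of these held a peak (20.7%, 9.85 to 38.4%), against 2661 of 16702 protein-coding genes (15.9%). ZEB1, a known target of the family, held 1 peak in an intron at chr10:31498682-31498694 with a p-value of 0.019 and rank 7483, and ZEB2 held none. CDH1, which encodes E-cadherin, held 2 peaks in a coding exon with a lowest p-value of 1.51e-33. VIM, which encodes the mesenchymal filament protein vimentin, held 4 peaks, 2 in coding sequence and 2 in exons that only non-coding transcripts have, with a lowest p-value of 6.20e-42. QKI, an RNA-binding regulator of splicing, held 2 peaks in a UTR exon with a lowest p-value of 7.38e-64. The transcription factors OVOL2 and TP63 held 2 and 4 intronic peaks. The genes with a peak were long, with a median of 134 kb against 29.3 kb for the listed genes without one, and the same held for all protein-coding genes (96.1 and 22.2 kb). The share in this list was near the background. Of the markers on chromosomes with peaks, 1 of 6 epithelial genes (CDH1), 2 of 5 mesenchymal genes (VIM and ZEB1) and 2 of 4 blood cell microRNA genes (MIR142 and MIR150, beside 10.3% of all microRNA genes) held a peak, which describes peak positions and not expression.

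Of 22 genes that make or use microRNAs, 19 are on chromosomes with peaks and 6 held one (31.6%, 15.4 to 54.0%), an interval that holds the background of 15.9%. Here too the genes with a peak were long, with a median of 138 kb against 49.9 kb for those without one. DROSHA, the nuclear nuclease, held 2 peaks in a UTR exon with a lowest p-value of 1.38e-95. The peaks in its partner DGCR8 and in DICER1 lay in microRNA genes of their own. All 3 peaks of DGCR8 were in MIR1306, within an exon, with a lowest p-value of 7.69e-125, and all 4 of DICER1 were in MIR3173, within an intron, with a lowest p-value of 1.13e-06. TNRC6A and TNRC6B, which link Argonaute to mRNA decay, each held 1 intronic peak, with p-values of 1.92e-269 and 1.90e-14. TUT4, which adds uridines to microRNA precursors, held 2 intronic peaks with a lowest p-value of 2.12e-110. No Argonaute gene on these chromosomes (AGO1, AGO3 and AGO4) held a peak.

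Matches to the family's seeds were counted as a further description, chosen after seeing the data. The letters searched were CAGTATT and CAGTGTT, the reverse complements of the seeds in the AAUACUG and AACACUG groups, on the strand of the peak only. Of 4343 sites outside microRNA genes, 50 had either match within the 61 bases centred on the site (1.15%, 0.874 to 1.51%), and 97 of 8686 windows of that length placed 1 kb to either side did (1.12%). The 3′ UTR annotation of ZEB1 held 14 matches and that of ZEB2 also 14, and no peak lay in either. The peak closest to a match was 21.6 kb away for ZEB1 and 128 kb for ZEB2. Sites of V5-RRN3 outside microRNA genes thus held these letters about as often as the sequence around them.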

How the data were processed

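The authors deposited 1 list of peaks for 1 anti-V5 immunoprecipitate against 1 input. The deposited fold enrichment is a ratio computed by the authors for each peak. For every peak the authors also gave a p-value, and a false discovery rate that is 1 throughout. The deposited score is also 1 for every peak. The aligner, peak caller and threshold are not given in the sources used here. The build is GRCh38 per the submitters' processing notes. The start column was read as counted from 0, since end minus start equals the listed length in all 7793 peaks, and positions are printed 1-based.

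Peaks were placed by midpoint on gene bodies of GENCODE release 44, on the strand of the gene. Mature and hairpin sequences came from RefSeq by symbol, which matched 1417 of 1509 microRNA genes (93.9%) and 154 of the 156 with a peak. All 2545 mature sequences on chromosomes 1 to 22, X and Y equalled the genome at their position. Mature sequences without an arm in their name, such as miR-429, were assigned by their side of the hairpin. Hairpins were folded with RNAfold 2.7.2. Intervals are 95% Wilson intervals on numbers of peaks, sequences, bases or genes, which are not independent. Named genes were the members, genes of the lists with a peak, genes sharing a seed with a member and genes with a peak within 10 kb of a cluster. ZEB2, the Argonaute genes, the neighbours without a peak, the genes with the nearest other peaks (AGRN and LPCAT3) and the microRNA genes within DGCR8 and DICER1 were named after their values were seen. The members and lists were chosen with earlier results of these data known. With 1 library per condition no test was made. The placement of sites was tested on simulated data. The software was pandas 2.3.3 and scipy 1.17.1 under Python 3.11.15, with matplotlib 3.10.9 for the plots.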

Additional observations from a re-analysis of the deposited data

How the results depend on the processing

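Over 11 results, 33 alternative values were computed. By the 95% interval of the reported value for shares and a factor of 1.5 for counts, 19 stayed close to it and 14 did not. The 10 peaks in the family were 10 by any overlap, by whole peaks inside the gene and on either strand. They were 6 when only the 3896 peaks of lowest p-value were kept, 2 with the lowest 779 and 5 as joined sites. The share of family peaks on a mature sequence was 100% in every alternative tried. The share of mature bases under peaks was 39.5% with the 3896 peaks and 22.6% with the 779, since fewer peaks enter, and 92.8% over the 3p sequences alone, a choice made after seeing the data. The share of microRNA genes with a peak was 8.30% with the genes of every chromosome counted (156 of 1879), those without a listed peak included, and 8.42% with the 3896 peaks. In the list of the epithelial-mesenchymal switch, 3 genes held a peak in exons and 1 among the 3896 peaks, in place of 6. In the list of the microRNA machinery, 2 held a peak in exons in place of 6. Without peaks in microRNA genes, chosen after seeing the data, 4 did. Of the sites, 40% were unique with windows of 16 bases, against 100% with 20 and 30. Reading the start column as counted from 1, also chosen after seeing the data, left both shares of peaks on mature sequences as they were but moved the share of sites that begin at the first mature base from 60% to 0% in the family, and from 52.7% to 18.9% (89 to 32 of 169) over all microRNA genes. That reading would make every peak 1 base longer than its listed length. The cause of these differences was otherwise not tested. Without replicates, and with the reads behind the peaks not analysed here, the precision of single peaks is unknown. No paired analysis was possible because the list gives 1 comparison of 1 library with 1 input.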
